A study of Homo sapiens with 12 samples.

Results

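The unfolded protein response and the integrated stress response were followed here through 37 genes in cells labelled as the human multiple myeloma lines ARP1, JJN3 and RPMI-8226. The genes were taken from a list of pathway members, each kept where the array held a probe set assigned to that gene symbol alone, and each read from its probe set with the highest mean level. All 37 were on the array, among 18239 genes with such a probe set. All 37 also passed the filter on low levels (log2 level at or above 5 in 3 or more arrays), which left 15173 genes for testing. By role they were 14 chaperones and folding enzymes of the endoplasmic reticulum (ER), 9 genes of ER-associated degradation, 4 genes of protein entry and folding, 4 stress sensors and membrane-bound transcription factors, and 6 genes of the integrated stress response.

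The unfolded protein response adjusts the folding capacity of the ER to the load of newly made secretory protein. Its sensors ERN1, ATF6 and EIF2AK3 sit in the ER membrane. Through the transcription factors XBP1, cleaved ATF6 and ATF4 they lead to more chaperones and more degradation of misfolded protein, and EIF2AK3 also lowers protein synthesis. EIF2AK3 is at the same time one of the kinases of the integrated stress response, in which phosphorylated eIF2 slows translation in general while ATF4 is made. Plasma cells and myeloma cells secrete immunoglobulin and depend on this machinery.

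The study compared 4 groups of 3 arrays each, with 1 array per line and treatment and 6 h of treatment, per the treatment protocol. The Combo arrays held cells given 0.01 µM CPI203, 5 µM lenalidomide and 0.05 µM dexamethasone, the LenDex arrays cells given the same lenalidomide and dexamethasone without CPI203, the CPI203 arrays cells given CPI203 alone, and the control arrays cells given none of the 3 drugs. CPI203 is an inhibitor of BET bromodomain proteins, lenalidomide redirects the cereblon ubiquitin ligase, and dexamethasone is a glucocorticoid. No array had 1 of lenalidomide and dexamethasone without the other, and their effects cannot be told apart. The series title asks how CPI203 adds to lenalidomide in myeloma models.

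The arrays labelled JJN3 and RPMI-8226 had lower levels of most plasma cell genes than the arrays labelled ARP1. Of 11 such genes, 9 were higher in value in ARP1 and 2 lower. SDC1 lay between 11.78 and 12.26 (log2 level) on ARP1 arrays, against 5.15 to 5.79 on JJN3 arrays and 4.96 to 5.38 on RPMI-8226 arrays, where the array medians were 5.304 to 5.375. The B cell antigen MS4A1 ran the other way, at 4.59 to 5.33 in ARP1, against 11.63 to 11.89 in JJN3 and 11.48 to 12.06 for RPMI-8226. The median level of 11 B cell genes was 5.04 to 5.37 over the ARP1 arrays, 6.96 to 7.56 over the JJN3 arrays and 7.04 to 7.69 over the RPMI-8226 arrays. That of 11 plasma cell genes was 11.4 to 11.6, 7.17 to 9.45 and 5.95 to 8.41 in the same order of lines. T cell, monocyte, erythroid, fibroblast and epithelial marker lists had medians of 4.74 to 5.75 on every array, near the array medians. Single genes of those lists were far higher, such as the fetal haemoglobin gene HBG1, with 12.26 to 12.40 on ARP1 arrays, 13.19 to 13.32 on those of JJN3 and 6.77 to 8.53 on those of RPMI-8226. The levels of all genes correlated between JJN3 and RPMI-8226 arrays at Pearson's r of 0.963 to 0.981, close to the 0.976 to 0.994 between arrays of 1 line, and at 0.867 to 0.887 between ARP1 arrays and either. The JJN3 arrays with a drug also lacked immunoglobulin RNA that the JJN3 control array held, with IGKC at 5.11 to 5.55 against 9.32 in control, and results are therefore given with and without it. Lines are named below by their labels. In RNA from whole cultures, fewer cells of a type and less RNA per cell cannot be told apart.

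**Figure D1:**
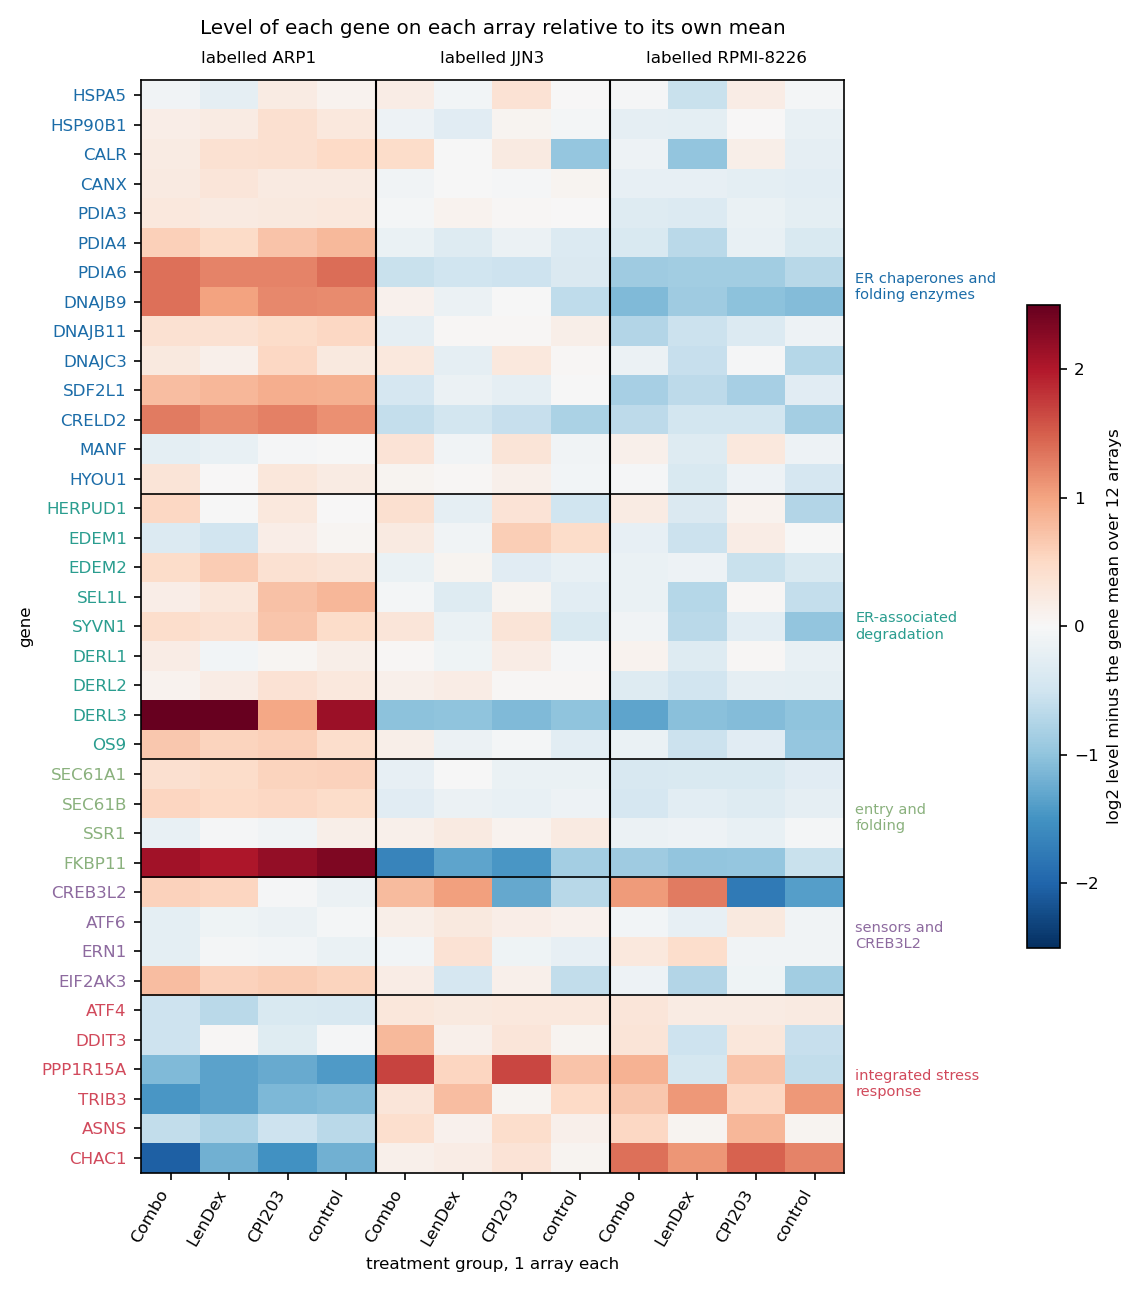
Log2 level of each of the 37 genes (rows, in order of role) on each of the 12 arrays (columns, 1 array each, Combo, LenDex, CPI203 and control within each labelled line), minus that gene's mean over the 12 arrays. The ARP1 columns stand apart in most rows, high for PDIA6, DERL3 and FKBP11 and low for CHAC1, TRIB3 and PPP1R15A, while the drugs mark rows such as CREB3L2 and EDEM1.

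Some of the promoters hold elements through which stress genes are known to be induced, and the stretches around them are shown so that these genes can be read by element. Of the 37 genes, 34 had a promoter in the RefSeq table for GRCh38.p14, which gives 250 bases before and 50 bases after the start site. Both strands were searched. At least 1 of the elements searched was found in 12 of the 34 members, and none in the other 22. The ER stress response element (ERSE), bound by cleaved ATF6 and XBP1 together with NF-Y, was spelled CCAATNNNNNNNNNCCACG and was present in 5 members and in 0.0806% of all 27305 promoters. Its shorter form ERSE-II, ATTGGNCCACG, was present in 3 members and in 0.0549% of promoters. The C/EBP-ATF composite site TGATGNAA, through which ATF4 acts on amino acid and stress genes, was present in 3 members and in 3.67% of promoters. A cAMP response element, TGACGTCA, was present in 2 members and in 1.98% of promoters. The core of the XBP1 element, TGACGTGG, which shares its first letters with the cAMP response element, was found in HYOU1 alone, overlapping an ERSE-II, and in 0.795% of promoters. The glucocorticoid response element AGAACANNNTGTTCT was in none of the 34 windows and in 0.00366% of promoters. These exact letters occur in 1 of the 27305 promoters, so their absence from the 34 windows says nothing about these genes. Each stretch below is read 5′ to 3′ along the element, with the fixed letters of the element in capitals.
HSPA5 ERSE, chr9:125241379-125241421, minus strand: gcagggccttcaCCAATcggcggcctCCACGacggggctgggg
HSP90B1 ERSE, chr12:103930204-103930246, plus strand: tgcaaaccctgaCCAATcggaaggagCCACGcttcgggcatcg
HSP90B1 second ERSE, chr12:103930309-103930351, minus strand: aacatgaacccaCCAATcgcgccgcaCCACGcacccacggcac
CALR ERSE, chr19:12938372-12938414, minus strand: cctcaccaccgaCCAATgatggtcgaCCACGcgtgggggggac
CANX ERSE, chr5:179698766-179698808, plus strand: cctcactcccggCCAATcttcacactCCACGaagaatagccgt
CRELD2 ERSE, chr22:49918542-49918584, minus strand: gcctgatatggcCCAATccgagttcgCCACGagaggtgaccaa
SDF2L1 ERSE-II, chr22:21642102-21642136, minus strand: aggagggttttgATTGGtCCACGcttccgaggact
HYOU1 ERSE-II, chr11:119057368-119057402, plus strand: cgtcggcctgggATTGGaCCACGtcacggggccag
HYOU1 second ERSE-II, chr11:119057262-119057296, plus strand: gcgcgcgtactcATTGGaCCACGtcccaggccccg
HERPUD1 ERSE-II, chr16:56932013-56932047, plus strand: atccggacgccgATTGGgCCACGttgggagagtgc
HERPUD1 C/EBP-ATF composite, chr16:56931954-56931985, minus strand: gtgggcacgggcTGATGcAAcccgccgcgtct
ASNS C/EBP-ATF composite, chr7:97872457-97872488, minus strand: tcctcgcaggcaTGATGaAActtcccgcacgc
CHAC1 C/EBP-ATF composite, chr15:40953250-40953281, minus strand: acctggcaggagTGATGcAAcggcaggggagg
PPP1R15A cAMP response element, chr19:48872351-48872382, plus strand: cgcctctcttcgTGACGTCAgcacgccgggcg
CREB3L2 cAMP response element, chr7:138002246-138002277, minus strand: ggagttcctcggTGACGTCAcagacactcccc
A match describes letters in the window and not a site in use. HERPUD1 was the one member with both an ERSE-II and a C/EBP-ATF composite site.

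The widest differences were between lines. Most ER chaperone, degradation and entry genes were higher in ARP1 than in JJN3 and RPMI-8226 (11 of 14, 7 of 9 and 3 of 4 called higher, and EDEM1 lower), while 5 of the 6 genes of the integrated stress response were lower. Of the 37 members, 22 were called higher and 6 lower in ARP1 against the mean of the other 2 lines (called means a Benjamini-Hochberg adjusted p under 0.05 in limma), where 49.5% of all genes tested were called, 24.1% higher and 25.4% lower. Without adjustment, p was under 0.05 for 30 members and 54.2% of all genes. Among genes with a mean log2 level of 6 or more, 28 of 35 members and 72.8% of all such genes were called. The members' median difference was 0.37 on the log2 scale, against -0.02 over all genes tested. A set of 4 arrays of 1 line stood against 4 arrays of each of 2 others, so these p-values measure the spread between arrays of these lines, and the difference moves with the plasma cell and B cell markers given above. The part of those markers in it was not tested.

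Among the chaperones and folding enzymes, 11 of 14 were called higher in ARP1 and none lower, with a median difference of 0.49. PDIA6, a protein disulfide isomerase, differed most. PDIA6 lay at 12.92 (Combo), 12.79 (LenDex), 12.78 (CPI203) and 12.93 (control) on ARP1 arrays, against 10.99, 11.03, 11.02 and 11.18 on JJN3 arrays and 10.64, 10.67, 10.66 and 10.85 on RPMI-8226 arrays, in the same order of treatments. No ARP1 array came near any array of the other lines, and the difference was 1.97 ± 0.06 (log2, SE), a 3.93-fold higher level (adjusted p = 2.64e-09). CRELD2, a folding protein induced by ER stress, was 1.82 ± 0.07 higher, and DNAJB9, a co-chaperone of HSPA5, 1.79 ± 0.12 higher. SDF2L1, which works with the co-chaperone DNAJB11, was 1.28 ± 0.08 higher, PDIA4 was 0.97 ± 0.08 higher and DNAJB11 itself 0.66 ± 0.08 higher. Smaller differences, from 0.30 to 0.42, were called for the ER form of Hsp90 (HSP90B1), the lectin chaperone CANX, the disulfide isomerase PDIA3, the co-chaperone DNAJC3 and the nucleotide exchange factor HYOU1. DNAJC3 was called in 1 of its 3 probe sets, which ran from -0.35 to 0.42, HYOU1 in 6 of 9, from -0.03 to 0.52, and CRELD2 in 1 of 2, with -0.05 in the other. CALR, the soluble lectin chaperone, lay just outside the threshold at 0.56 ± 0.23 (adjusted p = 0.0735). MANF, a secreted stress-induced protein, differed by -0.17 ± 0.10 (adjusted p = 0.192).

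HSPA5, the central Hsp70 chaperone of the ER lumen, depended on the probe set read. Its probe set with the highest mean gave a difference of -0.01 ± 0.08 between ARP1 and the other lines (adjusted p = 0.925). Over its 6 probe sets the differences ran from -0.01 to 0.66, and 4 of the 6 were called higher in ARP1 when all probe sets were tested singly. The 5 ERSE genes thus comprised 3 called higher (HSP90B1, CANX and CRELD2) and 2 not called by the probe set read (HSPA5 and CALR), and the 3 ERSE-II genes were all called higher, with values from 0.29 to 1.28.

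Of the 9 degradation genes, 7 were called higher in ARP1 and 1 lower. DERL3, a derlin of the retrotranslocation complex, lay at 9.15 (Combo), 8.73 (LenDex), 7.16 (CPI203) and 8.33 (control) on ARP1 arrays, against 5.18, 5.19, 5.09 and 5.19 on JJN3 arrays and 4.88, 5.16, 5.12 and 5.20 on RPMI-8226 arrays. On the other lines it was thus at or below the array medians, where RMA levels are compressed, and the difference of 3.22 ± 0.25 (adjusted p = 2.05e-06) is given without a fold. Its 4 probe sets were all called higher, by 1.58 to 3.22. OS9, a lectin that reads the glycans of misfolded proteins, was 0.84 ± 0.09 higher, SEL1L and SYVN1, the scaffold and the ubiquitin ligase of the central degradation complex, 0.75 ± 0.13 and 0.73 ± 0.11 higher, and the mannose-trimming EDEM2 0.68 ± 0.07 higher. DERL2 was 0.33 ± 0.08 and HERPUD1, which organises the SYVN1 complex, 0.29 ± 0.09 higher. SYVN1 was called in 1 of its 2 probe sets, with 0.05 in the other, and HERPUD1 in 2 of 4, from -0.11 to 0.45. EDEM1, the other mannose-trimming member, was lower by -0.23 ± 0.06 (adjusted p = 0.0131), and DERL1 differed by 0.11 ± 0.08 (adjusted p = 0.258).

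Of the 4 entry and folding genes 3 were called higher in ARP1. FKBP11, a prolyl isomerase of secretory cells, differed most among them. FKBP11 lay at 11.30 (Combo), 11.24 (LenDex), 11.41 (CPI203) and 11.55 (control) on ARP1 arrays, against 7.57, 7.90, 7.77 and 8.36 on JJN3 arrays and 8.32, 8.22, 8.25 and 8.65 on RPMI-8226 arrays. The difference was 3.25 ± 0.09, a 9.48-fold higher level (adjusted p = 8.51e-10). SEC61A1 and SEC61B, subunits of the channel through which proteins enter the ER, were both 0.75 ± 0.07 higher. SSR1, a subunit of the translocon-associated complex, differed by -0.06 ± 0.07 (adjusted p = 0.478).

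Of the sensors and membrane-bound factors, EIF2AK3 was called higher in ARP1, by 0.95 ± 0.11 (adjusted p = 3.90e-05). Its lowest ARP1 array, at 8.92, stood above its highest JJN3 array at 8.54 and its highest RPMI-8226 array at 8.26. ATF6 lay just outside the threshold at -0.21 ± 0.09 (adjusted p = 0.0801), ERN1 at -0.20 ± 0.09 (adjusted p = 0.114) was between 5.00 and 5.69 on every array and so near the array medians, and CREB3L2 differed by 0.36 ± 0.31 (adjusted p = 0.388).

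All 6 genes of the integrated stress response had negative differences and 5 were called lower in ARP1, with a median difference of -1.42. CHAC1, a glutathione-degrading enzyme induced through ATF4, lay at 5.79 (Combo), 6.62 (LenDex), 6.32 (CPI203) and 6.62 (control) on ARP1 arrays, against 7.96, 8.02, 8.17 and 7.90 on JJN3 arrays and 9.21, 8.93, 9.30 and 9.08 on RPMI-8226 arrays. The difference was -2.23 ± 0.14 (adjusted p = 4.75e-07), a 4.69-fold lower level. PPP1R15A, the stress-induced subunit that steers phosphatase to eIF2, was lower by -1.92 ± 0.18 and the pseudokinase TRIB3 by -1.88 ± 0.12. Asparagine synthetase, ASNS, was lower by -0.96 ± 0.09 and ATF4 itself by -0.74 ± 0.07. DDIT3, the transcription factor also called CHOP, lay between 4.93 and 6.32 over all arrays and differed by -0.30 ± 0.20 (adjusted p = 0.256).

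**Figure D2:**
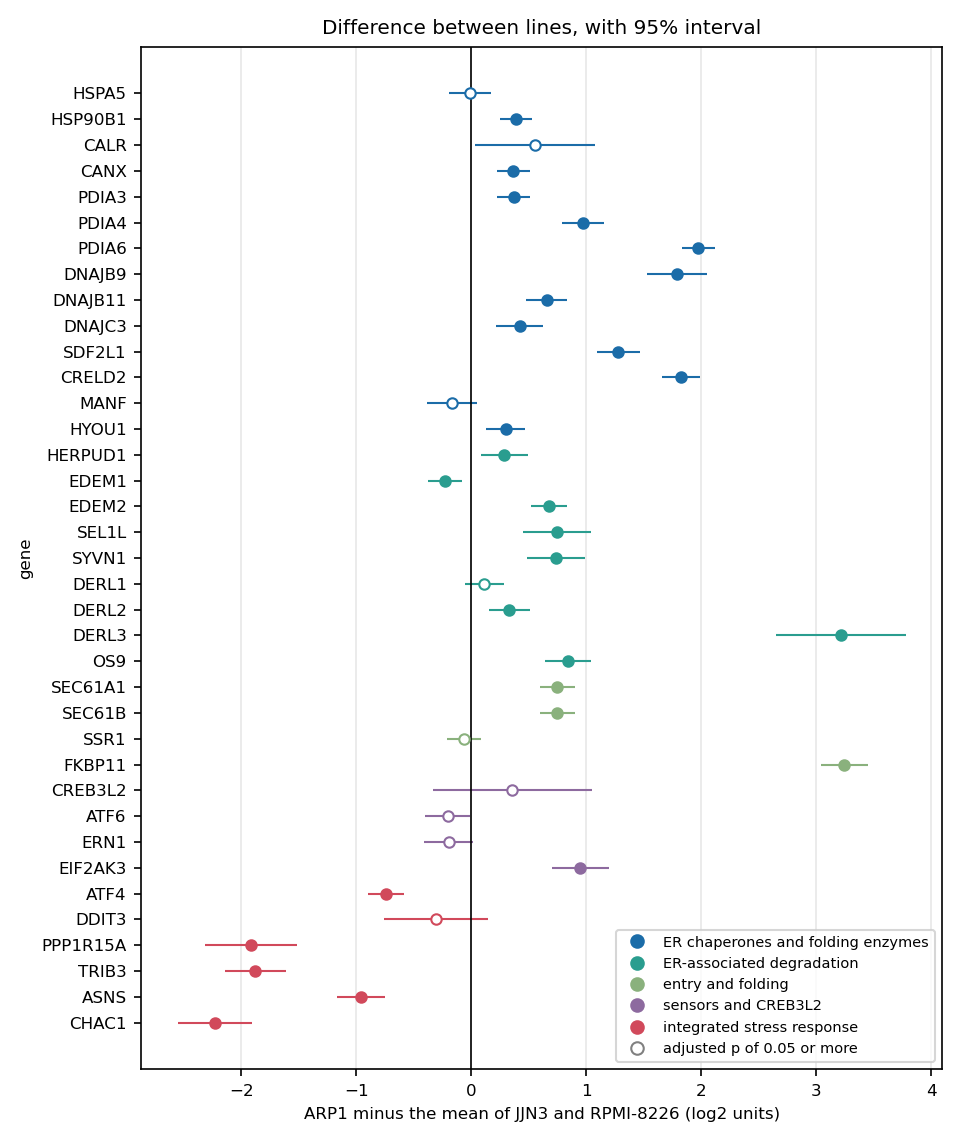
Difference in log2 level between the 4 ARP1 arrays and the mean of the 8 JJN3 and RPMI-8226 arrays for each gene (points, with 95% intervals of the limma fit as bars, coloured by role, open where the adjusted p was 0.05 or more). FKBP11 at 3.25 and DERL3 at 3.22 stand furthest to the right, and CHAC1 at -2.23 furthest to the left, with the other integrated stress response genes also left of 0.

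The other lists of the pathway were made from general knowledge, with earlier results of these data known, and were read in the same fit. Their counts are thus not independent of these data. XBP1, the factor made by ERN1 splicing, was 2.26 ± 0.08 higher in ARP1 (adjusted p = 6.45e-09), with levels of 12.72 to 12.79 on ARP1 arrays, against 10.35 to 10.64 on JJN3 arrays and 10.27 to 10.66 on RPMI-8226 arrays. The probe sets do not show whether its RNA was spliced. Of 10 further sensors and factors tested, 5 were called higher in ARP1, XBP1 among them with BHLHA15 (0.95), a factor of secretory cells, and the protease MBTPS1 (0.80), which cleaves ATF6. Of 21 translocon, signal recognition and signal peptidase genes, 18 were called higher and 1 lower, led by TRAM1 (1.502), SSR2 (1.35) and SSR4 (1.11). Of 18 glycosylation genes, 14 were called higher and 2 lower, led by DPAGT1 (1.70), RPN1 (1.32) and STT3A (1.23). Of 15 further redox and folding genes, 9 were higher and 3 lower, with PDIA5 (1.96), PRDX4 (1.43) and PPIB (0.97) first. Of 20 further degradation genes, 9 were higher and 1 lower, led after XBP1, which is on that list too, by UBE2J1 (1.19) and EDEM3 (1.58). Of 18 genes of ER to Golgi transport, 11 were higher and none lower, with KDELR1 (1.38), PREB (1.65) and SEC24D (1.74) first.

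The further targets of ATF4 went the other way. Of 30 tested, 20 were called lower in ARP1 and 3 higher, with a median of -0.49. CTH, an enzyme of cysteine synthesis, was lower by -4.15 ± 0.14, the stress-induced SESN2 by -2.37 ± 0.08 and the seryl-tRNA synthetase SARS1 by -1.75 ± 0.06. The 15 genes of the eIF2 machinery were split, with 6 higher and 4 lower. EIF2B4 (1.22) and EIF2AK4 (0.65), the kinase that senses missing amino acids, were higher and PPP1R15B (-0.59), the constitutive partner of the eIF2 phosphatase, lower.

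The arrays labelled JJN3 and RPMI-8226 also differed from each other in these genes. Against RPMI-8226, 12 members were called higher in JJN3 and 2 lower, where 15.5% of all genes were called, 8.52% higher and 6.95% lower. Without adjustment, p was under 0.05 for 19 members and 28.5% of all genes. Limited to genes with a mean log2 level of 6 or more, the test called 18 of 35 members and 28.5% of all such genes. The members' median difference was 0.22, against 0.01 over all genes. None of the 14 chaperones was lower in value in JJN3, and 6 were called higher, with DNAJB9 at 0.85 ± 0.14 (adjusted p = 0.00271) the widest, followed by SDF2L1 (0.45), DNAJC3 (0.45), DNAJB11 (0.43), PDIA6 (0.35) and PDIA3 (0.29). Of the degradation genes SYVN1 (0.52), EDEM1 (0.45), OS9 (0.41) and DERL2 (0.41) were called higher, and of the entry genes SSR1 (0.29). FKBP11 was lower in JJN3 by -0.46 ± 0.10 (adjusted p = 0.0148).

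Among the integrated stress response genes PPP1R15A was 1.02 ± 0.21 higher in JJN3 than in RPMI-8226 (adjusted p = 0.00903) and CHAC1 lower by -1.11 ± 0.17 (adjusted p = 0.00189). Just outside the threshold were HYOU1 (0.28, adjusted p = 0.0572), TRIB3 (-0.43, adjusted p = 0.0623), CANX (0.22, adjusted p = 0.0714) and SEC61A1 (0.22, adjusted p = 0.0913). The count was lower with fewer arrays, as it was over all genes. Leaving out the CPI203 arrays left 5 members and 8.82% of all genes called, and leaving out the LenDex arrays 5 members and 9.01%. Markers of other cell types were higher in JJN3 too. Of 5 erythroid genes 3 were called higher, with all 5 positive, of 11 plasma cell genes 3, with 9 positive, and of 8 fibroblast and epithelial genes 3, none of these lists holding a gene called lower. HBG1 was 5.61 ± 0.32 higher, KRT18 3.63 ± 0.13 and JCHAIN 3.07 ± 0.27, and their part in the result was not tested.

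CPI203 raised a handful of these genes. On the average over cells with and without lenalidomide and dexamethasone, which sets 6 arrays against 6 within lines, 6 of 37 members were called higher and none lower, where 7.28% of all genes were called, 3.3% higher and 3.99% lower. Without adjustment, p was under 0.05 for 15 members and 24.1% of all genes. When only genes with a mean log2 level of 6 or more were tested, 9 of 35 members were called, all higher, and 19.3% of all such genes. The members' median effect was 0.09 on the log2 scale, against -0.003 over all genes, with 23 positive and 14 negative values. Known responses to the drug moved on the same arrays: HEXIM1, which BET inhibitors induce, was 1.14 ± 0.22 higher and MYC lower by -0.51 ± 0.10, and 4 of 5 such genes were called. That list was chosen with earlier results of these data known, so its count is not independent of them. The HEXIM1 effect itself differed between lines by limma's moderated F test (adjusted p = 0.0262) and was smallest in ARP1. Without the JJN3 control array that difference was not called. Of 11 plasma cell genes none was called by limma, with 6 at an unadjusted p under 0.05, and their part in the result was not tested. The 6 were called 0 times when the JJN3 or the RPMI-8226 arrays were left out, or when the arrays of those 2 like lines were averaged, and HERPUD1 alone was called without the JJN3 control array.

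HERPUD1 had the smallest p of the 6. In ARP1 cells it was at 11.34 with CPI203 and 11.60 with Combo, against 11.07 with LenDex and 11.10 in control. Among the JJN3 arrays it was at 11.44 with CPI203 and 11.48 with Combo, against 10.86 with LenDex and 10.59 in control. For RPMI-8226 the values were 11.18 with CPI203 and 11.29 with Combo, against 10.73 with LenDex and 10.35 in control. In every line both arrays with CPI203 stood above both without it, and the average effect was 0.60 ± 0.09 (SE), or 1.52-fold (adjusted p = 0.0124). Of its 4 probe sets 3 were called higher.

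PPP1R15A had the largest effect, and it was uneven between lines. Among the ARP1 arrays it was at 6.93 with CPI203 and 7.09 with Combo, against 6.86 with LenDex and 6.79 in control. For JJN3 it was at 9.86 with CPI203 and 9.89 with Combo, against 8.72 with LenDex and 8.90 in control. On the RPMI-8226 arrays it was at 8.91 with CPI203 and 9.06 with Combo, against 7.75 with LenDex and 7.57 in control. Arrays with and without CPI203 did not overlap within any line. The effect was 0.19 in ARP1, against 1.06 in JJN3 and 1.32 in RPMI-8226, and 0.86 ± 0.17 on average, or 1.81-fold (adjusted p = 0.0225). The difference between lines lay just outside the threshold (adjusted p = 0.0641).

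EIF2AK3, which phosphorylates eIF2 and so stands upstream of PPP1R15A, followed the same order of lines. For ARP1 it was at 8.97 with CPI203 and 9.14 with Combo, against 8.94 with LenDex and 8.92 in control. On the JJN3 arrays it was at 8.49 with CPI203 and 8.54 with Combo, against 7.94 with LenDex and 7.74 in control. In RPMI-8226 cells it was at 8.26 with CPI203 and 8.23 with Combo, against 7.63 with LenDex and 7.497 in control. The groups did not overlap within a line, and the average effect was 0.49 ± 0.10 (adjusted p = 0.0279), from 0.12 in ARP1, where EIF2AK3 was highest to begin with, to 0.67 in JJN3 and 0.68 in RPMI-8226. All 3 probe sets gave effects between 0.47 and 0.55, and 2 were called.

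SYVN1, the ubiquitin ligase that HERPUD1 serves, overlapped in ARP1 but not in the other lines. On the ARP1 arrays it was at 9.76 with CPI203 and 9.50 with Combo, against 9.46 with LenDex and 9.53 in control. In JJN3 cells it was at 9.39 with CPI203 and 9.38 with Combo, against 8.90 with LenDex and 8.69 in control. Among the RPMI-8226 arrays it was at 8.81 with CPI203 and 8.97 with Combo, against 8.405 with LenDex and 8.08 in control. The average effect was 0.46 ± 0.11 (adjusted p = 0.0342), and the second probe set of the gene gave 0.03.

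DNAJC3 was the chaperone gene among the 6, and it encodes an HSPA5 co-chaperone that also restrains EIF2AK3. In ARP1 cells it was at 9.70 with CPI203 and 9.42 with Combo, against 9.31 with LenDex and 9.42 in control. Among the JJN3 arrays it was at 9.45 with CPI203 and 9.45 with Combo, against 8.96 with LenDex and 9.21 in control. For RPMI-8226 it was at 9.16 with CPI203 and 9.04 with Combo, against 8.598 with LenDex and 8.46 in control. In ARP1 the Combo and control arrays were level. The average effect was 0.38 ± 0.09 (adjusted p = 0.0341), and 1 of 3 probe sets was called.

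ASNS completed the 6. Among the ARP1 arrays it was at 10.98 with CPI203 and 10.88 with Combo, against 10.71 with LenDex and 10.82 in control. For JJN3 it was at 11.93 with CPI203 and 11.91 with Combo, against 11.59 with LenDex and 11.61 in control. On the RPMI-8226 arrays it was at 12.32 with CPI203 and 12.001 with Combo, against 11.55 with LenDex and 11.55 in control. The groups did not overlap within a line, the average effect was 0.37 ± 0.09 (adjusted p = 0.0383), and 2 of 4 probe sets were called.

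Just outside the threshold were OS9 (0.31, adjusted p = 0.0533), HSPA5 (0.27, adjusted p = 0.0664), EDEM1 (0.21, adjusted p = 0.0686) and TRIB3 (-0.34, adjusted p = 0.0984). All 6 probe sets of HSPA5 had positive effects, from 0.27 to 0.41, and none was called. The other chaperones ran from -0.21 (SDF2L1) to 0.44 (CALR), and MANF at 0.27 and HYOU1 at 0.21 were not called either. Entry genes all had negative values, from -0.22 for FKBP11 to -0.06 for SEC61B. ATF4 was level at 0.05 ± 0.07 and ATF6 at 0.04 ± 0.08. With the variance trend and robust fit 13 members were called, 12 of them higher, where 11.1% of all genes were called. TRIB3 was the member called lower there, and also with the mean of all probe sets (5 higher, 1 lower) and without the ARP1 arrays (10 higher, 1 lower), at -0.34 to -0.47.

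**Figure D3:**
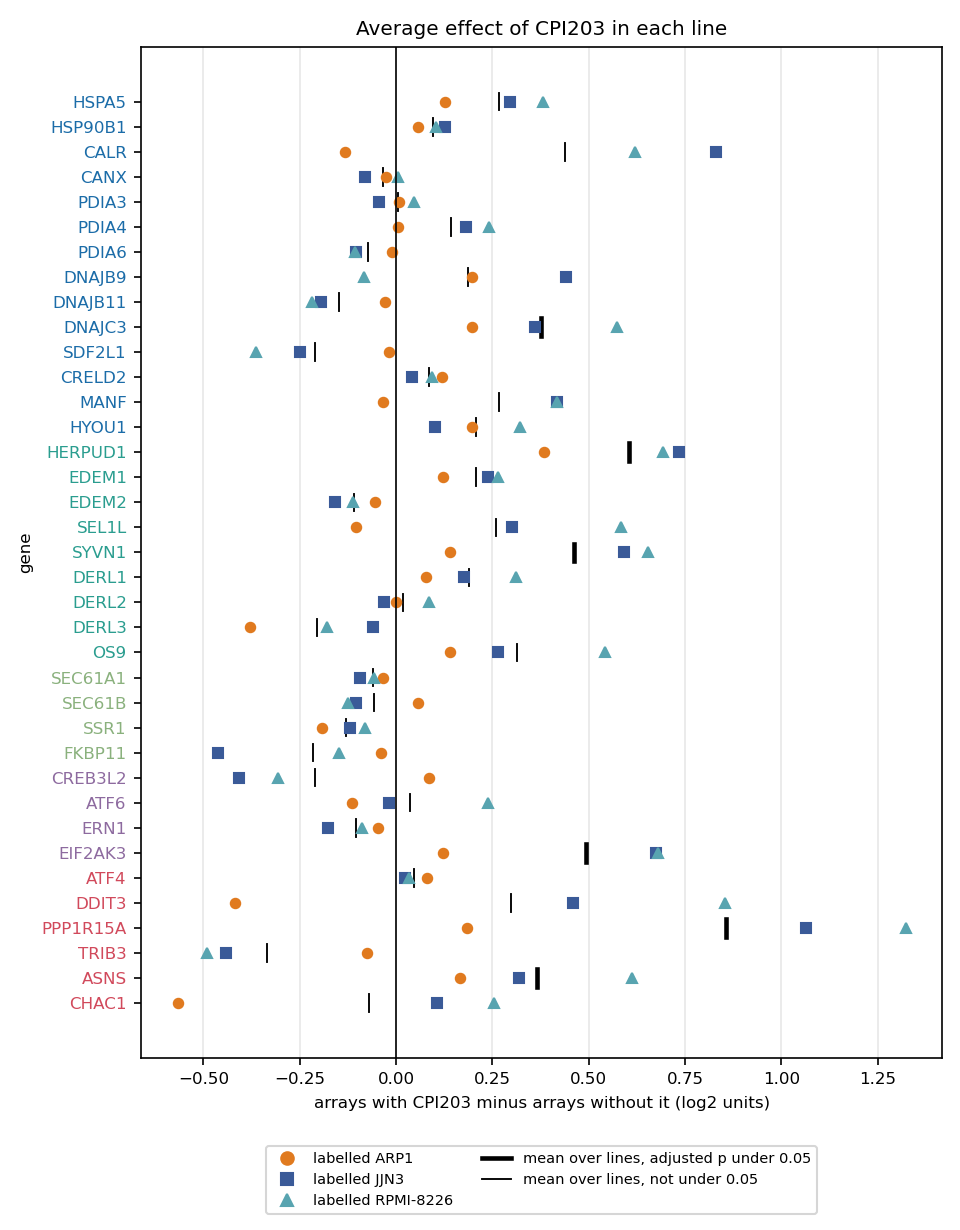
Effect of CPI203 on each gene in each labelled line, as the mean of the 2 arrays with CPI203 minus the mean of the 2 arrays without it (log2 units, symbols), with the mean over the 3 lines as a vertical bar (thick where the adjusted p was under 0.05). For PPP1R15A the symbols run from 0.19 in ARP1 to 1.32 in RPMI-8226, and for DDIT3 from -0.42 in ARP1 to 0.85 in RPMI-8226.

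In value only, the sign of the CPI203 effect differed between lines for some members that the average did not call. Between-line differences in the CPI203 effect were called for 0 of 37 members by the moderated F test of limma, where 0.323% of all genes were called. At an unadjusted p under 0.05 there were 10 members, against 14.7% of all genes. The variance trend and robust fit called 6 members and 4.44% of all genes. DDIT3 was at 5.21 with CPI203 and 4.99 with Combo, against 5.55 with LenDex and 5.49 in control on ARP1 arrays. On the JJN3 arrays DDIT3 was at 5.82 and 6.32, against 5.63 and 5.59, and on RPMI-8226 arrays at 5.79 and 5.84, against 4.99 and 4.93, in the same order. Its values with CPI203 were below those without it in ARP1 and above in the other lines, with effects of -0.42, 0.46 and 0.85 and an adjusted p of 0.0984 for the difference. Its level lay close to the array medians throughout, and its second probe set was called higher with CPI203 on average at 0.50. CHAC1 had effects of -0.57 in ARP1, against 0.10 in JJN3 and 0.25 in RPMI-8226, and SEL1L of -0.11, 0.30 and 0.58, with adjusted p-values of 0.230 and 0.152 for the difference.

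The further lists held mixed movements with CPI203. Of 30 further ATF4 targets, 3 were called higher, which were the stress-induced SESN2 (0.59) and TXNIP (0.72) and the transcription factor ATF3 (1.22), and 3 lower, which were STC2 (-0.81), XPOT (-0.37) and SLC7A1 (-0.40). EIF2AK4 was the one gene of the 15 in the eIF2 machinery to be called, at -0.43 ± 0.07 (adjusted p = 0.0152). MBTPS2, the second protease of ATF6, was lower by -0.61 ± 0.14 among 10 further sensors and factors, and SRPRB was lower by -0.40 among 21 translocon genes. Among 20 further degradation genes VCP, the ATPase that extracts proteins from the membrane, was 0.32 ± 0.07 higher and UBE2J1 lower by -0.38 ± 0.08. Of 15 redox genes TXNDC11 (0.54) and QSOX1 (0.68) were higher and TXNDC15 (-0.51) lower. UGGT2 (0.57) was called higher among 18 glycosylation genes by its brightest probe set, with the opposite sign in the mean of all its probe sets. None of 18 ER to Golgi genes was called by limma, with 3 at an unadjusted p under 0.05.

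Lenalidomide with dexamethasone moved 2 of the 37 members, 1 up and 1 down. On the average over cells with and without CPI203, 4.25% of all genes were called, 1.73% higher and 2.52% lower. At an unadjusted p under 0.05 there were 8 members and 18.9% of all genes. With only genes of a mean log2 level of 6 or more, 3 of 35 members and 12% of all such genes were called. Of all genes 262 were higher and 383 lower, and 383 were higher and 266 lower after cyclic loess scaling, which left the 2 members called. The members' median effect was -0.05, against 0.01 over all genes. After cyclic loess scaling it was 0.001, against 0.019 over all genes, so its sign depended on the scaling. The glucocorticoid targets FKBP5 (1.87), CXCR4 (2.52) and TSC22D3 (3.58) were higher on the same arrays, the 3 called of 6 such genes, a list also chosen with earlier results of these data known. Of 11 plasma cell genes SLAMF7 was called, lower by -1.32, and the part of these markers was not tested. Neither member was called without the JJN3 or the RPMI-8226 arrays, and both were called without the JJN3 control array.

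CREB3L2, a transcription factor of the CREB family that sits in the ER membrane and is released by cleavage as ATF6 is, was the member that rose. For ARP1 it was at 11.24 with LenDex and 11.29 with Combo, against 10.69 with CPI203 and 10.57 in control. In JJN3 cells it was at 11.74 with LenDex and 11.49 with Combo, against 9.44 with CPI203 and 10.01 in control. In RPMI-8226 cells it was at 11.997 with LenDex and 11.77 with Combo, against 8.94 with CPI203 and 9.33 in control. Arrays with LenDex stood above those without in every line, by 0.64 in ARP1, against 1.89 in JJN3 and 2.75 in RPMI-8226. The average effect was 1.76 ± 0.29, or 3.39-fold (adjusted p = 0.0146), and 4 of its 7 probe sets were called higher. The difference between lines was called too (adjusted p = 0.0164, where 0.369% of all genes were called), and CREB3L2 was the one member of 37 for which it was. That call was lost without the JJN3 control array and with the mean of all probe sets of a gene. The lines ranked in opposite orders with and without the drugs. Among LenDex arrays ARP1 was lowest at 11.24 and RPMI-8226 highest at 11.997, and among control arrays ARP1 was highest at 10.57 and RPMI-8226 lowest at 9.33.

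EDEM1, which trims mannose from misfolded glycoproteins and hands them on for degradation, was the member that fell. On the ARP1 arrays it was at 9.71 with LenDex and 9.83 with Combo, against 10.35 with CPI203 and 10.22 in control. Among the JJN3 arrays it was at 10.09 with LenDex and 10.40 with Combo, against 10.80 with CPI203 and 10.64 in control. Among the RPMI-8226 arrays it was at 9.64 with LenDex and 9.97 with Combo, against 10.36 with CPI203 and 10.17 in control. Arrays with LenDex stood below those without in every line, by nearly the same amount, at -0.52 in ARP1, against -0.48 in JJN3 and -0.46 in RPMI-8226. The average effect was -0.49 ± 0.06, or 1.40-fold lower (adjusted p = 0.00664). It was called in the brightest of its 5 probe sets, while the other 4 gave values from -0.19 to -0.01.

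**Figure D4:**
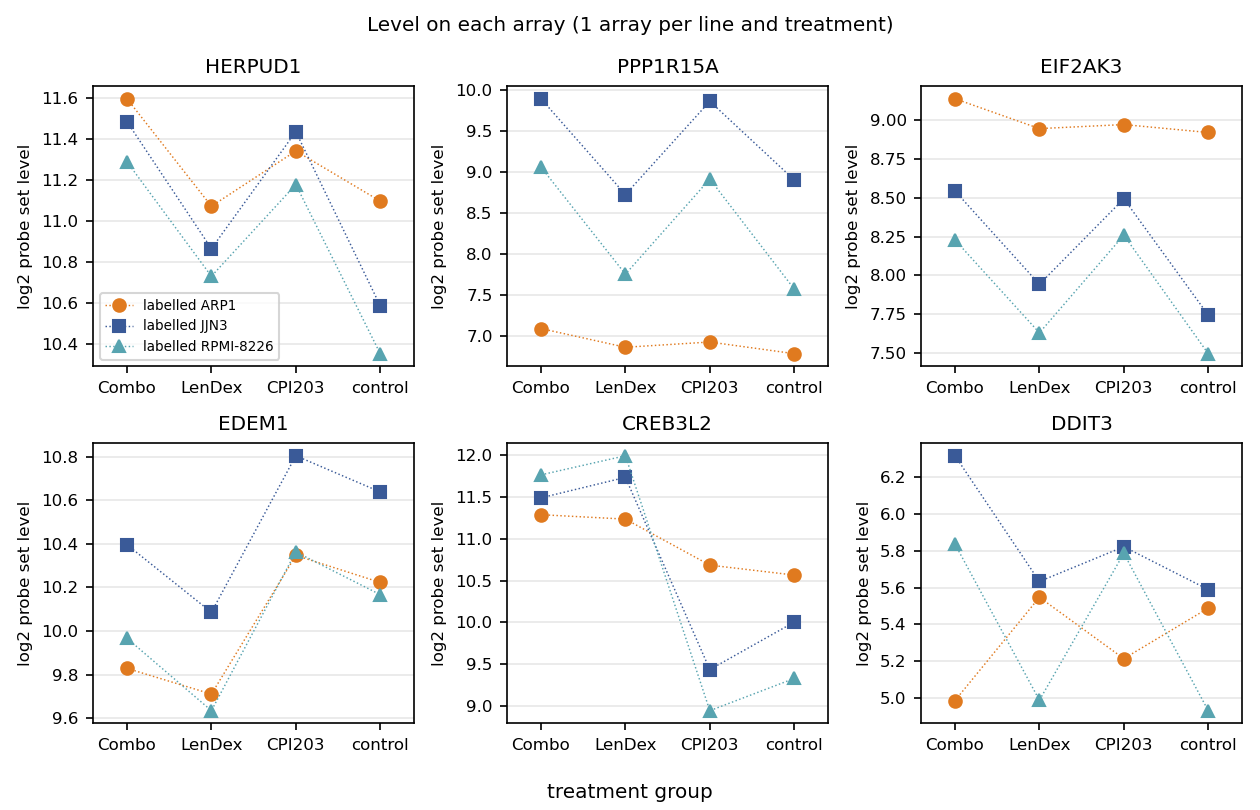
Log2 level of HERPUD1, PPP1R15A, EIF2AK3, EDEM1, CREB3L2 and DDIT3 on each of the 12 arrays (1 point per array, one symbol per labelled line, joined by dotted lines for reading only) by treatment group. HERPUD1 is higher in the Combo and CPI203 groups, and CREB3L2 is higher and EDEM1 lower in the Combo and LenDex groups, in every line. DDIT3, close to the array medians, takes opposite directions with CPI203 in ARP1 and in the other lines, a difference between lines that was not called.

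Just outside the threshold were EDEM2 (0.24, adjusted p = 0.0793), whose arrays with LenDex stood above those without in every line, and HSPA5 (-0.26, adjusted p = 0.0965). HSPA5 again depended on the probe set: effects ran from -0.51 to -0.17 over its 6 probe sets, and 3 of them were called lower when tested singly. Of the 14 chaperones 10 had negative values, among them DNAJB11 (-0.24), HSP90B1 (-0.17) and PDIA4 (-0.16), and none was called by limma, with 3 at an unadjusted p under 0.05. These signs are of the deposited values, and the sign of the members' median depended on the scaling. No integrated stress response gene was called, with values from -0.15 (CHAC1) to 0.08 (DDIT3) and none at an unadjusted p under 0.05.

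**Figure D5:**
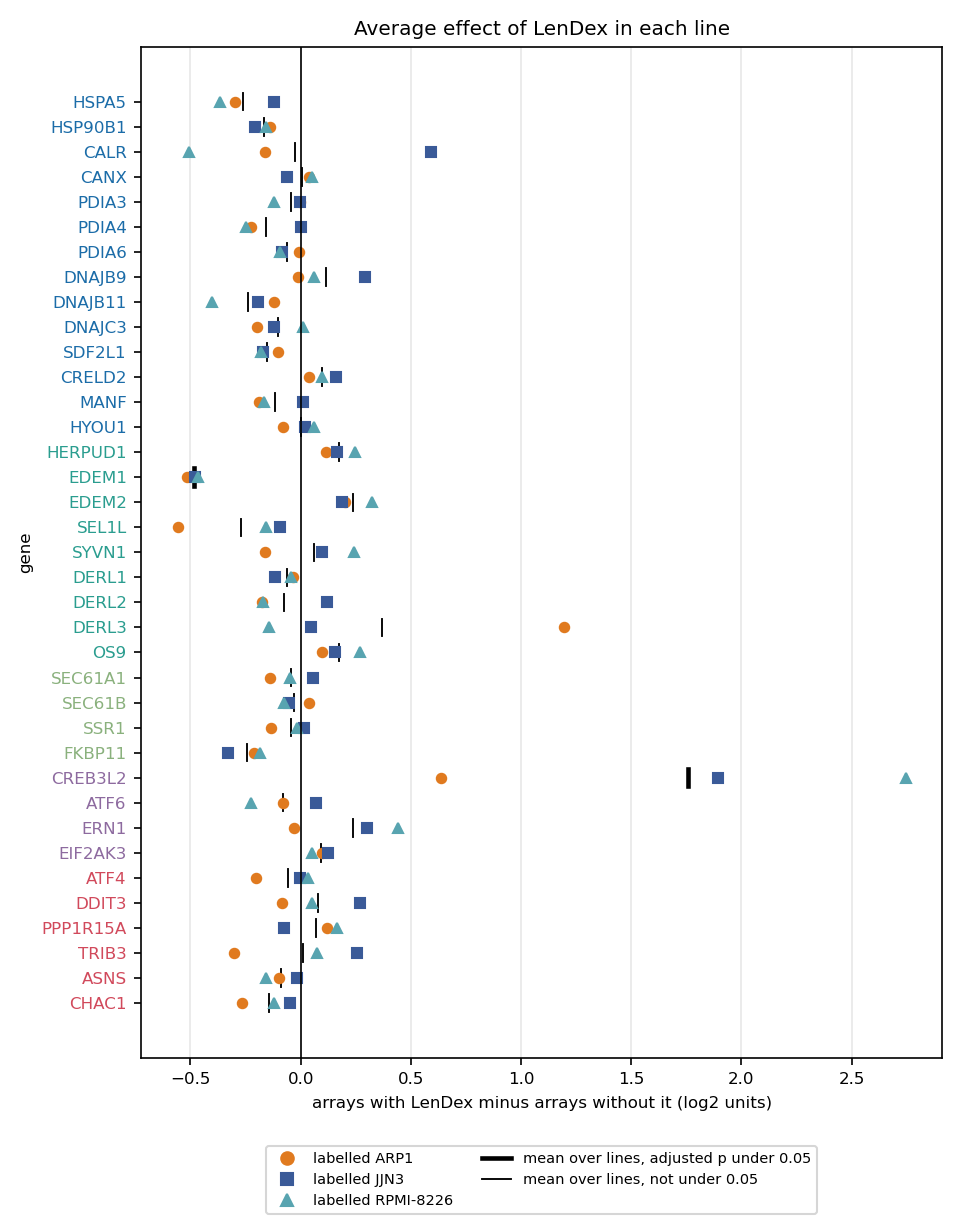
Effect of lenalidomide with dexamethasone (LenDex) on each gene in each labelled line, as the mean of the 2 arrays with it minus the mean of the 2 arrays without it (log2 units, symbols), with the mean over the 3 lines as a vertical bar (thick where the adjusted p was under 0.05). CREB3L2 runs from 0.64 in ARP1 to 2.75 in RPMI-8226, EDEM1 lies between -0.52 and -0.46 in all lines, and DERL3 lies at 1.20 in ARP1, against 0.05 in JJN3 and -0.14 in RPMI-8226.

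Among the further lists, LenDex raised DDIT4 (1.54) and TXNIP (0.89), and lowered the cystine carrier SLC7A11 (-0.56), of 30 ATF4 targets. EIF2AK4 was 0.57 ± 0.07 higher and PPP1R15B lower by -0.37 ± 0.06 of 15 genes of the eIF2 machinery. SEC61A2 (0.32) was higher of 21 translocon genes and SEC24A (-0.58) lower of 18 ER to Golgi genes. None of 10 further sensors and factors, 18 glycosylation, 15 redox and 20 further degradation genes was called by limma, with 0, 1, 4 and 4 at an unadjusted p under 0.05.

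The comparisons of single groups, with 3 arrays each, share the control arrays, and their values are given side by side. CPI203 against control called 0 of 37 members by limma (0.00659% of all genes), with 9 at an unadjusted p under 0.05 (16.2% of all genes). The variance trend and robust fit called 2 (2.09% of all genes). HERPUD1 came nearest, at 0.64 ± 0.12 (adjusted p = 0.0829). LenDex against control called EDEM1 alone, lower by -0.53 ± 0.09 (adjusted p = 0.0485), where 0.461% of all genes were called. That call was lost after cyclic loess scaling, without the JJN3 control array, without any 1 line and with the mean of all probe sets. CREB3L2, higher, was the one member called in its place with the mean of all probe sets (0.71, adjusted p = 0.0438) and without ARP1 (2.1997, adjusted p = 0.0129).

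Combo against control called 7 members, 5 higher and 2 lower, where 9.15% of all genes were called, 3.55% higher and 5.6% lower. At an unadjusted p under 0.05 there were 10 members and 24.3% of all genes. Among genes with a mean log2 level of 6 or more, 10 of 35 members and 21.4% of all such genes were called. HERPUD1 was 0.78 ± 0.12 higher (adjusted p = 0.00845), with 0.50 in ARP1, against 0.90 in JJN3 and 0.94 in RPMI-8226. PPP1R15A was 0.93 ± 0.24 higher (adjusted p = 0.0415), EIF2AK3 0.58 ± 0.15 (adjusted p = 0.0383), OS9 0.49 ± 0.12 (adjusted p = 0.0356) and CREB3L2 1.55 ± 0.41 (adjusted p = 0.0456). FKBP11 was lower by -0.46 ± 0.12 (adjusted p = 0.0443) and DNAJB11 by -0.39 ± 0.11 (adjusted p = 0.0498). After cyclic loess scaling 6 members were called higher and none lower. HERPUD1 alone was called without the JJN3 control array. Just outside the threshold were SYVN1 (0.52, adjusted p = 0.0612), EDEM1 (-0.28, adjusted p = 0.0758) and SDF2L1 (-0.36, adjusted p = 0.0783).

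For EDEM1 the Combo value lay between those of the single treatments, at -0.28 ± 0.09 with Combo, -0.53 ± 0.09 with LenDex and 0.16 ± 0.09 with CPI203, each against control. The interaction, which asks whether the effect of both treatments departs from the sum of the single effects on the log2 scale, was called by limma for 0 of 37 members and 0% of all genes. At an unadjusted p under 0.05 it had 1 member, CRELD2 at -0.32 (adjusted p = 1), and 3.11% of all genes.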

How the data were processed

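Total RNA of 12 cultures was labelled and hybridised to Affymetrix arrays, per the labels' protocols. The authors deposited log2 signals per probe set. The submitters' processing notes name RMA and Affymetrix Expression Console 1.1, and that the scale is log2 follows from the range of the values. RMA gives arrays a common distribution, and a change is thus read against most other transcripts; whether all arrays were normalised together is not given in the sources used here. Signals have no count depth, and precision is limited by the number of arrays. Each array held 49386 probe sets: 93 controls, 45253 with 1 gene symbol, 1327 with several and 2713 with none in the platform annotation. Of the single-symbol ones 45172 had a RefSeq gene identifier, and genes were named from these annotations.

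With limma 3.58.1 in R 4.3.3, a model of line and group was fitted per gene over 12 arrays (6 residual degrees of freedom). Tests were two-sided, and p-values were adjusted by Benjamini-Hochberg across 15173 genes. The line pairs the arrays: deviations from group means correlated within lines at 0.905 to 0.938 (ARP1), 0.82 to 0.884 (JJN3) and 0.831 to 0.888 (RPMI-8226). Differences in drug effect between lines came from a moderated F test (3 residual degrees of freedom) that takes the drugs to add on the log2 scale. Nothing in the labels says that arrays of a line came from separate experiments, so p-values measure the spread between these arrays. Members and lists were chosen with earlier results of these data known. Full values are given for members called for a drug or a line difference, and for the member of each role with the widest difference in ARP1; of other lists, counts and up to 3 called genes with the smallest p. Scripts were tested on simulated data. Alternatives covered the level filter, probe set choice, scaling, variance model, block and arrays left out; single probe sets and each line alone were added after seeing the data. Sequences came from RefSeq promoters; those of PDIA3, DERL1 and DERL3 were not used here.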

Additional observations from a re-analysis of the deposited data

Results flagged for a closer look

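The effect of lenalidomide with dexamethasone on CREB3L2 differed between lines in a test of the difference itself (limma's moderated F test, adjusted p = 0.0164). The effect was 0.64 in ARP1, against 1.89 in JJN3 and 2.75 in RPMI-8226 on the log2 scale, positive in all 3 lines.

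Genes of the other lists also differed between lines by that test. Without the JJN3 control array, however, it called 0 of 15173 genes for either treatment. With JJN3 and RPMI-8226 arrays averaged it called 0 genes for CPI203 and 51 for lenalidomide with dexamethasone. With CPI203 the effect on HEXIM1 was 0.23 in ARP1, against 1.42 in JJN3 and 1.78 in RPMI-8226 cells (adjusted p = 0.0262), and on the heat shock gene HSPA1A 0.02, against 0.87 and 1.55 (adjusted p = 0.0378), in the same order of lines. The plasma cell receptor TNFRSF17 had effects of -0.20 in ARP1, against -1.69 and -3.04 (adjusted p = 0.0262), and the B cell factor CIITA -0.04, against -0.44 and -2.10 (adjusted p = 0.0467). For the erythroid marker KLF1 the values were -0.15, against -2.54 and -0.005 (adjusted p = 0.0261), and for HBG1 -0.04, against -0.09 and 1.64 (adjusted p = 0.0261). With lenalidomide and dexamethasone the glucocorticoid targets TSC22D3 and ZBTB16 had effects of 4.55 and 3.24 in ARP1, against 3.11 and 0.30 in JJN3 and 3.08 and 0.07 in RPMI-8226 cells (adjusted p = 0.0307 and 0.0121).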

How the results depend on the processing

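The call of 28 members between ARP1 and the other lines held at 26 to 29 under each alternative that kept both other lines, and at 24 against JJN3 alone and 28 against RPMI-8226 alone. The drug counts were less stable. Members called with CPI203 on average (6) became 13 with the variance trend and robust fit, 1 without the JJN3 control array, 0 with no replicate block (lines left unpaired), 0 with JJN3 and RPMI-8226 arrays averaged, and 0 to 11 with 1 line left out (11 without ARP1). With the mean of all probe sets the 6 were 5 higher and 1 lower, TRIB3 and HSPA5 in place of SYVN1 and DNAJC3. With LenDex (2) the counts in the same order were 5, 2, 0, 0 and 0 to 2. For CPI203 against control (0) the variance trend gave 2 and leaving out a line 0 to 4. For LenDex against control (1) cyclic loess, the JJN3 control array left out, no replicate block, averaged lines, the 6 arrays alone and single probe sets each gave 0, and leaving out a line 0 to 1. For Combo against control (7) the JJN3 control array left out gave 1, and no replicate block, averaged lines and the 6 arrays alone each gave 0, with 0 to 10 when a line was left out. For JJN3 against RPMI-8226 (14) leaving out 1 treatment gave 5 to 10, with 8.82% to 10.5% of all genes called. Line differences in the CPI203 effect (0) became 1 with a mean level of 6 or more, 1 with the mean of all probe sets and 6 with the variance trend (4.44% of all genes). Those in the LenDex effect (1) became 0 with the mean of all probe sets, 2 with the variance trend (3.1% of all genes) and 0 without the JJN3 control array. Leaving out arrays leaves fewer degrees of freedom, and leaving out the block more spread, by construction. Each line left out removes the same number of arrays, and the CPI203 count was 11 without ARP1 but 0 without JJN3 or without RPMI-8226. What set these counts was not tested. A count of 1 for LenDex against control stood for CREB3L2, not EDEM1, without ARP1 and with the mean of all probe sets. UGGT2 took the opposite sign with CPI203 with the mean of all probe sets (-0.016). Against 1 line alone, HBG1 in ARP1 was -0.96 against JJN3, and KRT18 and KRT8 were 1.20 and 0.62 against RPMI-8226, each opposite to its sign against both. Over all genes, CPI203 calls (1105) became 118 without the JJN3 control array, 0 with JJN3, RPMI-8226 or the block left out, 2399 without ARP1 and 1686 with the variance trend. ERN1, DDIT3 and DERL3 outside ARP1 lay near the array medians, where small differences are compressed.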

Other observations

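Heat shock genes, most of them chaperones of the cytosol that answer to misfolded protein outside the ER, were a further list, with 16 tested. The list also held the mitochondrial HSPD1 and HSPE1 and the transcription factor HSF1. Of genes with a mean log2 level of 6 or more, 19.3% were called with CPI203 and 12% with lenalidomide and dexamethasone. Whether the list was called more often than genes of like level was not tested. With CPI203, 3 of 16 were called higher and none lower, against 7.28% of all genes called: the co-chaperone BAG3 (0.60 ± 0.12, adjusted p = 0.0239), the inducible Hsp70 gene HSPA1B (0.86 ± 0.18, adjusted p = 0.0250) and its partner DNAJB1 (0.68 ± 0.17, adjusted p = 0.0413). With lenalidomide and dexamethasone all 16 had negative values, and 2 were called lower, against 4.25% of all genes called, DNAJA1 (-0.38 ± 0.06, adjusted p = 0.0136) and HSPH1 (-0.32 ± 0.07, adjusted p = 0.0339). These signs are of the deposited values. Over all genes the balance of calls depended on the scaling, at 262 higher and 383 lower, but 383 higher and 266 lower after cyclic loess. HSPA1A, nearly identical in sequence to HSPA1B so that their probe sets may not be told apart, had CPI203 effects of 0.02 in ARP1, against 0.87 in JJN3 and 1.55 in RPMI-8226 cells (adjusted p of the difference = 0.0378). That difference was not called without the JJN3 control array. In ARP1 against the other lines 9 were lower, HSPH1 (-0.88) and HSP90AA1 (-0.76) among them, and 3 higher, led by HSPB1, which lay at 12.08 to 12.27 in ARP1, against 8.07 to 8.602 in JJN3 and 5.70 to 6.24 for RPMI-8226.

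EIF2AK4, the amino acid-sensing eIF2 kinase, took opposite directions with the 2 treatments in each line. It was at 6.31 with CPI203 and 6.72 with Combo, against 7.38 with LenDex and 6.58 in control on ARP1 arrays. On the JJN3 arrays it was at 5.37 and 5.89, against 6.41 and 5.63, and on RPMI-8226 arrays at 5.92 and 6.38, against 6.83 and 6.37, in the same order. The average effects were -0.43 ± 0.07 for CPI203 (adjusted p = 0.0152) and 0.57 ± 0.07 for LenDex (adjusted p = 0.00585).

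Residual spread around the fit differed widely between members, from a SD of 0.045 for CANX to 0.63 for CREB3L2, 0.51 for DERL3 and 0.47 for CALR. On the ARP1 arrays DERL3 ranged from 7.16 with CPI203 alone to 9.15 with Combo.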
